A study of Mus musculus with 24 samples.

Results

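Total spinal cord RNA of mice 42 days after a contusion injury (dpi 42, days post-injury) was compared with total RNA of uninjured, naive cord. The libraries were chosen by RNA kind and day as given in the names of the count columns, which left 6 of the 24 libraries of the series, 3 at dpi 42 and 3 naive. The series asked how oligodendrocytes (OLs), the myelinating glia of the central nervous system, respond to spinal cord injury (SCI), and it paired each total RNA library with RNA bound to tagged OL ribosomes at dpi 2, dpi 10, dpi 42 and in naive mice. All mice were female and of the genotype plp-cre;rpl22HA, also called OL-Ribotag. In these mice a tamoxifen-inducible Cre recombinase of the OL lineage, which is also active in Schwann cells, switches on an HA-tagged ribosomal protein Rpl22, and tamoxifen was given to naive and injured mice alike. The dpi 42 group received a T9 contusion of 50 kdyn from the IH impactor at 10 to 12 weeks of age by the labels, while the study's methods give a younger range, and was collected 42 days later. The naive group had no injury and no sham laminectomy, so the surgery and the contusion cannot be told apart. Each library was a pool of 2 mice, giving 3 pools per group, and the total RNA was polyA RNA from the cleared homogenate, before the pull-down of ribosomes.

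A contused cord passes from an acute stage of bleeding and invading leukocytes to a chronic stage with a lesion core of macrophages and fibroblasts, a rim of reactive astrocytes, and spared white matter. Phagocytes in the core take up myelin, digest it in lysosomes and hand its cholesterol to efflux carriers, whereas neurons lost at the lesion are not replaced. In bulk RNA, fewer cells of a type and less RNA per cell cannot be told apart, and neither can more cells and more RNA per cell.

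The 6 libraries held between 27739039 and 29050061 counted reads. All levels are CPM, read counts scaled by library size and TMM factor, which do not correct for gene length, so a level is compared only with the same gene in another library. Library 2 at dpi 42 carried conflicting labels, since its title named OL RNA whereas its description and its column named total RNA. Its Mag level, from a myelin adhesion gene, was 925.4 CPM against 919.1 and 791.7 CPM in the other total RNA libraries of that day and 7207 to 8844 CPM in the 3 OL libraries. The synaptic gene Snap25 stood at 2449 CPM in library 2, against 1810 and 1740 CPM in total RNA and 56.2 to 117 CPM in OL RNA. On these genes library 2 read as total RNA. OL library 1 of that day carried the reverse conflict and was likewise placed by its description and column. The 7207 CPM of Mag and 56.2 CPM of Snap25 are its values. On the first principal component of the 12 total RNA libraries, which carried 45.9% of the variance, the naive libraries lay between -110.88 and -106.95, and at dpi 42 library 2 lay at -0.40, nearer to naive than libraries 1 and 3 at 21.7 and 24.8. Results that rest on library 2 are therefore also given without it. In the naive libraries 634 to 683 genes had 1 to 3 reads, against 126 to 183 at dpi 42, and 832 genes had 0 reads in 1 dpi 42 library and over 10 in another, against 153 among naive libraries. What this means for genes of low count was not tested.

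At dpi 42 the cord held far more RNA of phagocyte, lysosome, complement, antigen-presentation and scar genes than naive cord, and less RNA of sterol synthesis genes and of neurotransmitter receptors. The rises were large and the falls small. Of 17167 genes tested, 1781 (10.4%) rose and 2076 (12.1%) fell at q under 0.05, with q taken from edgeR's quasi-likelihood test after Benjamini-Hochberg adjustment. The median log2 fold change (log2FC) was 1.61 among genes that rose and -0.58 among genes that fell. Past a log2FC of 1 in size, 1144 genes (6.66%) rose and 137 (0.798%) fell, and past 2 in size 768 rose and 7 fell, each of the 7 with at most 3 reads in every dpi 42 library. Of the 1144, 102 had at most 3 reads in every naive library, and for such genes the fold is given only as a lower bound set by 3 reads per library. The share of rises among all calls moved with scaling: it was 46.2% with TMM and 65.4%, 2184 against 1154 genes, with library sizes alone. The median log2FC of all genes was -0.08 with TMM and 0.02 with library sizes alone, so a change of that size has no fixed sign. The 3 injured libraries lay above all 3 naive libraries in 20.2% of tested genes and below them in 30.8%. A fit of the 12 total RNA libraries alone is quoted below as an alternative. In that fit 20.2% of tested genes rose and 16.1% fell at q under 0.05.

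**Figure D1:**
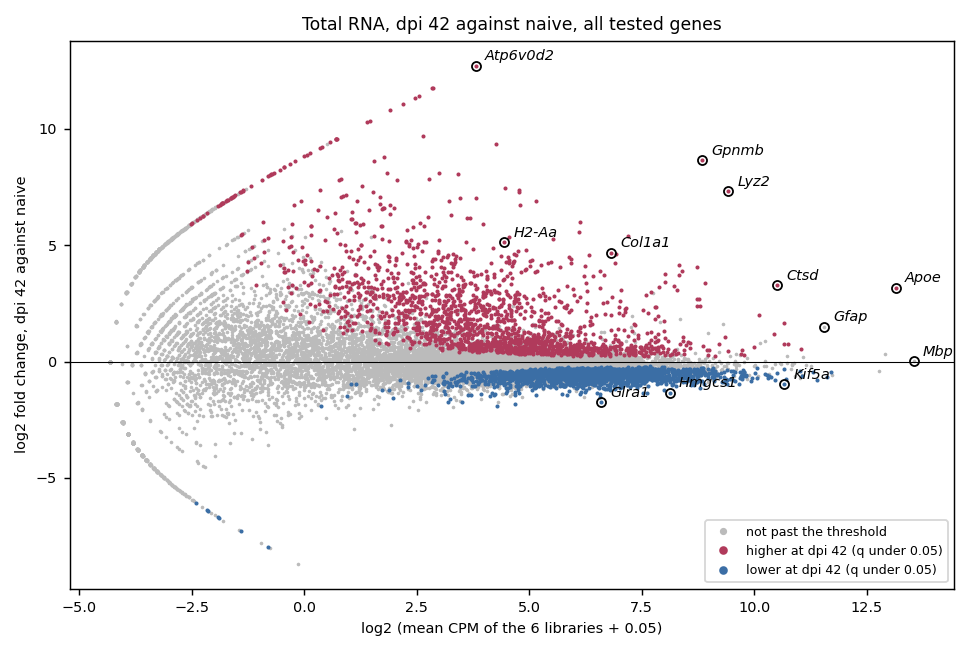
Each point is a gene, with its mean level in total RNA on the horizontal axis (log2 CPM) and the log2 fold change of dpi 42 over naive on the vertical axis, and coloured points had q under 0.05. The upper cloud reaches far beyond 2, where 768 genes lie, whereas 7 genes that fell pass the same distance below 0.

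The genes with the smallest p among the rises belonged mostly to phagocytes and their lysosomes. They were Ctsz, Ctsd and Hexa, which encode lysosomal enzymes, Grn, the lysosomal growth factor progranulin, Lyz2, the lysozyme of myeloid cells, Unc93b1, the escort of endosomal Toll-like receptors, Cd9, a tetraspanin, Tyrobp, the adaptor of TREM2, Itgb2, the leukocyte integrin chain, and Ftl1, the ferritin light chain. Ctsz read 49.4, 45.8 and 37.9 CPM in naive and 539, 387 and 487 CPM at dpi 42, a log2FC of 3.41 ± 0.13 (SE, q = 5.5e-13). Lyz2 read 10.8, 7.83 and 7.07 CPM in naive and 1377, 1020 and 1695 CPM at dpi 42 (log2FC 7.31 ± 0.30, q = 6.7e-13). In neither gene did the groups come near each other, and library 2 was the lowest of the injured libraries. Lyz2 has a close paralog, Lyz1, so reads of the 2 genes may have been shared in counting.

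The 5 genes named by rule for a large fitted fold at 1 CPM or more had no more than 3 reads in any naive library, so their folds are given as lower bounds and not ranked. Atp6v0d2, a subunit of the phagocyte and osteoclast proton pump, had no read in naive cord and 26.7, 20.02 and 37.8 CPM at dpi 42, at least 291-fold higher. Msr1, the macrophage scavenger receptor, was at least 150-fold higher, Slc47a1, a transporter of the meninges, at least 148-fold higher, and Apoc4, an apolipoprotein, at least 112-fold higher. Scn10a, a sodium channel of sensory ganglion neurons, is described with the nerve root genes below, since it rested on library 2.

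Of 25 tested genes of lipid-laden phagocytes, 23 rose and none fell, with a median log2FC of 4.47, or 4.38 with genes absent from naive cord set at their bound. The list's summed level was 3311 to 3460 CPM in naive and 29020, 21020 and 29930 CPM at dpi 42. Gpnmb, a membrane glycoprotein of lipid-laden macrophages (chr6:49036546-49070929, mm10), read 3.74, 2.13 and 1.01 CPM in naive and 983, 622 and 1149 CPM at dpi 42 (log2FC 8.65 ± 0.57, q = 7.8e-10). Cd68, a glycoprotein of macrophage endosomes, rose from 8.03, 6.09 and 6.12 CPM to 339, 204 and 318 CPM (log2FC 5.41 ± 0.33, q = 2.5e-10). Itgax, the integrin chain CD11c, stood under 0.7 CPM in every naive library and at 70.7, 56.1 and 85.2 CPM at dpi 42 (q = 8.5e-08). Every injured library exceeded every naive library in these 3 genes. Apoe, the main lipid carrier of the cord, was abundant already in naive cord at 1804 to 1829 CPM and reached 17930, 12850 and 18510 CPM at dpi 42 (log2FC 3.17 ± 0.47, q = 4.6e-05). Log2FC reached 7.38 for Cst7, a cystatin, 5.99 for Lgals3, the galectin of phagocytes, 4.57 for Lpl, lipoprotein lipase, and 2.38 for Spp1, osteopontin. The 2 members that did not pass were Axl (log2FC 1.48, q = 0.064) and Apoc2, which had at most 3 reads in naive cord.

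**Figure D2:**
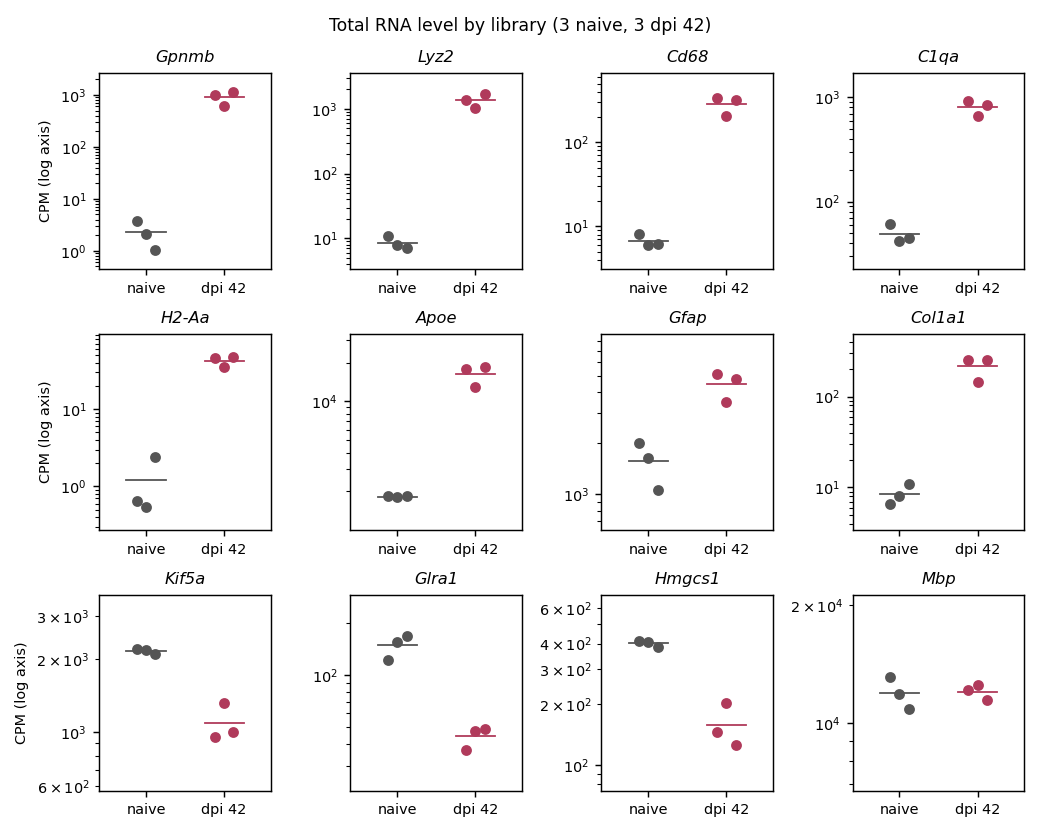
Level of 12 genes in each total RNA library of the 2 groups, as CPM on a log axis, with a line at each group's mean. Gpnmb, Lyz2, Cd68, C1qa, H2-Aa, Apoe and Col1a1 lie above every naive library at dpi 42, Kif5a, Glra1 and Hmgcs1 lie below, and the groups of Mbp overlap.

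Lysosome genes rose too, with a smaller median than the phagocyte list. Of 35 tested, 26 rose and 1 fell, with a median log2FC of 0.98. Ctsd, the aspartyl protease cathepsin D, read 286, 278 and 263 CPM in naive and 3142, 2081 and 2742 CPM at dpi 42 (log2FC 3.27 ± 0.14, q = 1.4e-12). The member that fell was Atp6v1a, a subunit of the vacuolar proton pump, from 449, 469 and 454 CPM to 269, 296 and 268 CPM (log2FC -0.72 ± 0.12, q = 1.5e-04). Naive and injured libraries did not overlap for this gene.

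Of 18 homeostatic microglial genes tested, 12 rose and none fell (median log2FC 1.96), and the summed level rose from 494 to 611 CPM in naive to 2587, 2018 and 2515 CPM. Cx3cr1, the fractalkine receptor, read 59.2, 53.1 and 51.3 CPM in naive and 232, 182 and 232 CPM at dpi 42 (log2FC 1.98 ± 0.19, q = 1.5e-07). Trem2, a lipid receptor of microglia and macrophages, rose from about 12 CPM in each naive library (12.1, 12.2 and 12.2) to 206, 149 and 184 CPM (log2FC 3.88 ± 0.26, q = 7.8e-10). P2ry12, the ADP receptor that marks resting microglia, read 35.5, 27.7 and 25.96 CPM in naive and 25.3, 31.5 and 26.8 CPM at dpi 42, with overlapping groups (log2FC -0.09 ± 0.19, q = 0.79). Sall1, a microglial transcription factor, gave a log2FC of 0.11 (q = 0.711).

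Of 19 tested genes of monocytes and border macrophages, 13 rose (median log2FC 3.41), and their summed level went from 25.1 to 33.3 CPM in naive to 326, 252 and 335 CPM. Cybb, the catalytic subunit of the phagocyte oxidase, rose from under 1 CPM to 54.8, 45.4 and 65.7 CPM (log2FC 6.73 ± 0.63, q = 1.5e-07). Mrc1, the mannose receptor of border macrophages, gave a log2FC of 3.50 ± 0.59 (q = 2.0e-04). Ms4a7, another border macrophage gene, was at or under 3 reads in naive and at least 219-fold higher. Arg1, an enzyme induced in macrophages early after injury, stood at 0.34, 0 and 0.20 CPM at dpi 42 and did not differ from naive by the test (q = 0.92).

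Complement genes rose together, 16 of 24 tested and none lower (median log2FC 2.96). C1qa, a chain of the initiating complex, read 60.8, 42.1 and 44.3 CPM in naive and 914, 663 and 842 CPM at dpi 42 (log2FC 4.04 ± 0.24, q = 1.9e-10). C4b, which C1 cleaves, rose by 2.84 ± 0.24 on the log2 scale (q = 4.3e-08). C3, the central component, read 80.4, 74.3 and 44.1 CPM in naive and 603, 374 and 702 CPM at dpi 42 (log2FC 3.08 ± 0.69, q = 0.0026). The receptor C3ar1 rose too (log2FC 4.79), so that components and a receptor moved in the same direction.

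Genes of antigen presentation to CD4 T cells rose. In the MHC class II pathway, alpha and beta chains form a dimer that is held by the invariant chain Cd74, trimmed by cathepsin S and loaded with peptide with the help of H2-DM, under the transactivator Ciita. The promoters of these genes are known to carry a Y box with the inverted CCAAT letters, and RefSeq promoters were read to look for it in genes that moved. The 120 bases before the annotated start (mm10, GRCm38.p6, gene strand) are shown for a classical alpha chain, a classical beta chain and the beta chain of the peptide loader. They run 5′ to 3′, with the letters ATTGG or CCAAT in capitals.
H2-Aa, chr17:34287824-34287943, minus strand: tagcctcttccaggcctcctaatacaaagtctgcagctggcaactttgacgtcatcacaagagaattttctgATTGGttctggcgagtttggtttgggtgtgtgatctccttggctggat
H2-Eb1, chr17:34305747-34305866, plus strand: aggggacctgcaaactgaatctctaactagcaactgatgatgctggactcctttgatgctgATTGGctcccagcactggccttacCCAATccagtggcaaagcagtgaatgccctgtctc
H2-DMb1, chr17:34153071-34153190, plus strand: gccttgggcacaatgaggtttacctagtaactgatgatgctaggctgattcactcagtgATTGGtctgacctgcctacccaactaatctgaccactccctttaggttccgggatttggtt

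The match began at base -48 in H2-Aa, at -59 and -35 in H2-Eb1 and at -61 in H2-DMb1, counted from the base before the start. H2-DMa, the alpha chain of the loader, rose too (log2FC 1.44). It had no match within 120 bases before either of its listed starts and is not shown. The letters ATTGG or CCAAT, searched on both strands in windows of 250 bases before to 50 after the start, were present in 12289 of 32851 RefSeq promoters (37.4%) and in 7 of 8 promoters of the class II chain genes listed. Such a match is a description of letters and not of a bound site.

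Of 17 tested genes of the class II pathway and costimulation, 11 rose and none fell (median log2FC 2.92). H2-Aa, the classical alpha chain shown above, read 0.66, 0.55 and 2.41 CPM in naive and 45.3, 35.0 and 46.8 CPM at dpi 42 (log2FC 5.13 ± 0.50, q = 2.8e-07). Its partner H2-Ab1 read 0.26, 0.74 and 2.38 CPM in naive and 44.3, 40.5 and 52.2 CPM at dpi 42 (log2FC 5.33 ± 0.58, q = 9.9e-07). Naive library 3 was the highest of the naive libraries for both chains and still lay far under every injured library. H2-Eb1, the beta chain with 2 matches above, rose by 4.89 ± 0.50 (q = 5.1e-07) and Cd74 by 5.57 ± 0.43 (q = 7.9e-09) on the log2 scale. H2-DMb1, whose promoter holds 1 match at a like distance, rose by 2.92 ± 0.49 (q = 1.9e-04), from 1.44 to 1.81 CPM in naive to 11.8, 10.2 and 15.8 CPM. Ciita itself stayed low, at 0, 0 and 0.13 CPM in naive and 1.12, 0.30 and 2.14 CPM at dpi 42, and did not pass (q = 0.12), although it passed when the 12 total RNA libraries were fitted alone (q = 0.0095).

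Class I presentation and interferon-stimulated genes rose as well. Of 19 class I genes tested, 14 rose and none fell (median log2FC 2.29), and of 30 interferon-stimulated genes, 23 rose and none fell (median 2.39). B2m, the light chain of class I molecules, read 118, 109 and 113 CPM in naive and 765, 666 and 763 CPM at dpi 42 (log2FC 2.69 ± 0.23, q = 3.2e-08). Psmb8, an immunoproteasome subunit, rose by 3.24 and Nlrc5, the class I transactivator, by 2.80 on the log2 scale. Bst2, which tethers budding virions, rose by 3.55 and Irf7, the amplifier of type I interferon, by 2.59. The interferon count ranged from 16 to 29 over the alternatives and leave-one-out fits. Class I heavy chains such as H2-K1 (log2FC 2.52) have near-identical relatives among which reads may be shared.

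Among 23 chemokine ligands tested, 15 rose and none fell. Ccl3, a chemokine made by activated microglia and macrophages, stood under 0.3 CPM in naive and at 21.8, 14.5 and 18.4 CPM at dpi 42 (log2FC 6.88 ± 0.58, q = 9.1e-08). Cxcl16, a membrane-bound scavenger and ligand of CXCR6, rose by 4.32 ± 0.40 on the log2 scale (q = 1.2e-07). Lymphocyte and neutrophil markers passed in numbers near the share of all tested genes that rose, 10.4%. Of 21 T and NK cell genes tested, 15 had at most 3 reads in every naive library, and their sum rose only from 1.64 to 2.39 CPM to 10.6, 13.4 and 17.96 CPM. Cd3e, Cd8b1 and Ccl5 passed the test, and Cd3e and Cd8b1 each lost it when any 1 of the 6 libraries was left out (q between 0.0559 and 0.136). Of 13 B and plasma cell genes, Cd22 alone passed, at 0.20, 0.13 and 0.32 CPM in naive and 33.3, 19.2 and 31.6 CPM at dpi 42 (log2FC 7.0 ± 0.62, q = 1.6e-07). Cd22 encodes a sialic acid receptor that microglia and macrophages can express too. Of 12 neutrophil genes, S100a9, a calcium-binding alarmin, and Csf3r, the G-CSF receptor, passed, with log2FC of 2.20 and 2.85, and S100a9 lost its call without dpi 42 library 1 or 3 or naive library 1 or 3 (q between 0.0625 and 0.122). Csf3r already read 6.66, 6.32 and 5.67 CPM in naive cord, and whether its rise came from neutrophils was not tested.

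Genes listed for astrocytes separated into a reactive list that rose and an identity list that mostly did not pass. Which cells the rises came from was not tested. Of 27 reactive astrocyte genes tested, 22 rose and none fell (median log2FC 2.61). Serpina3n, a protease inhibitor listed for reactive astrocytes, read 62.2, 54.5 and 52.0 CPM in naive and 628, 416 and 576 CPM at dpi 42 (log2FC 3.26 ± 0.20, q = 3.0e-10). Serpina3n is not a gene of astrocytes alone, since its mean at dpi 42 was 1889 CPM in OL RNA and 540 CPM in total RNA. The study counts it among genes acutely raised in OLs. Its gene lies in a cluster of near-identical relatives. Vim, an intermediate filament that fibroblasts and phagocytes also express, rose from 30.4 to 40.8 CPM in naive to 508, 383 and 551 CPM (log2FC 3.78 ± 0.49, q = 1.2e-05). Timp1, an inhibitor of matrix proteases, rose by 6.17 ± 0.70 on the log2 scale (q = 2.0e-06).

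Gfap, the astrocyte filament most used to mark the glial scar, read 2019, 1630 and 1067 CPM in naive and 5082, 3503 and 4770 CPM at dpi 42. The groups did not overlap, but Gfap did not pass (log2FC 1.5 ± 0.68, q = 0.13), and it passed in the fit of the 12 total RNA libraries alone (log2FC 1.62 ± 0.17, q = 4.28e-07). Of 20 astrocyte identity genes, none rose and 1 fell (median log2FC -0.14). That gene was Kcnj10, the potassium channel Kir4.1, at 1268, 1252 and 1135 CPM in naive and 811, 988 and 774 CPM at dpi 42 (log2FC -0.51 ± 0.12, q = 0.0048). In the fit of the 12 total RNA libraries 6 identity genes rose and 6 fell, where 20.2% and 16.1% of all tested genes did. Among them were Aqp4, the water channel, higher (log2FC 0.34, q = 0.0131) and Slc1a2, the glutamate transporter GLT-1, lower (log2FC -0.60, q = 0.00025). With the OL libraries in the fit, Slc1a2 gave -0.72 with a q of 0.53 and Aqp4 0.22 with a q of 0.88.

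Fibroblast and scar matrix genes lay above naive at dpi 42. Of 32 tested, 26 rose and none fell (median log2FC 2.46), and their sum rose from 1734 to 2028 CPM to 3755, 3112 and 3757 CPM. Col1a1, a chain of fibrillar collagen I (chr11:94936224-94953042, mm10), read 6.56, 8.03 and 11.03 CPM in naive and 252, 145 and 254 CPM at dpi 42 (log2FC 4.67 ± 0.38, q = 2.2e-08). Postn, periostin, rose by 4.53, Col3a1 by 4.25 and Fn1, fibronectin, by 3.39 on the log2 scale. The fibroblast receptor Pdgfrb did not pass (log2FC 1.08, q = 0.11).

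Meningeal and perineurial genes rose throughout, 12 of 12 tested (median log2FC 4.85). Slc13a4, a sulfate transporter of the meninges, read 0.92, 0.29 and 0.32 CPM in naive and 43.7, 9.50 and 38.7 CPM at dpi 42 (log2FC 5.91 ± 0.80, q = 1.7e-05), with library 2 the lowest. Slc22a6, an organic anion carrier of the meninges, had no read in naive and was at least 93.5-fold higher. Ptgds, prostaglandin D synthase, which OLs make too, rose from 430 to 457 CPM to 1979, 1331 and 2034 CPM (log2FC 2.01 ± 0.23, q = 2.1e-06). Of 15 basement membrane genes, 4 rose, Lama4, Nid2, Hspg2 and Col18a1, and 14 did in the fit of the 12 total RNA libraries. Nid2 lost its call in 5 of 6 leave-one-out fits, all but that without dpi 42 library 2 (q between 0.0693 and 0.102). Of 17 proteoglycan and tenascin genes none rose and 1 fell, Hapln1, the link protein of perineuronal nets, from 25.6, 26.4 and 29.4 CPM to 7.44, 13.6 and 9.79 CPM (log2FC -1.40 ± 0.35, q = 0.0071). Endothelial genes gave no call in 20 tested (median log2FC 0.04). In the fit of the 12 total RNA libraries 3 were higher, where 20.2% of all tested genes were. Of 13 pericyte and smooth muscle genes 4 rose, Anpep, Vtn, Acta2 and Tagln.

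Neuronal genes were lower, most clearly in libraries 1 and 3. Of 25 pan-neuronal genes tested, 10 fell and none rose (median log2FC -0.56). Their sum read 24740, 26350 and 25980 CPM in naive and 15390, 20780 and 14270 CPM at dpi 42, so library 2 kept most. Kif5a, a neuronal kinesin that moves cargo along axons (chr10:127225696-127263348, mm10), read 2206, 2190 and 2099 CPM in naive and 957, 1318 and 1004 CPM at dpi 42 (log2FC -0.99 ± 0.17, q = 2.3e-04). Map2, the dendrite cytoskeleton gene, fell by 0.95 ± 0.20 on the log2 scale (q = 0.0014). Nefl, the light neurofilament of large axons, read 2495, 2687 and 2486 CPM in naive and 1387, 2480 and 1265 CPM at dpi 42. Library 2 stood at the naive level, and Nefl passed only without it (log2FC -0.58, q = 0.074 with it and -0.95, q = 0.0031 without). The list's count was 15 without library 2, 5 with scaling by library sizes alone, 6 without dpi 42 library 1 or naive library 3, and 5 without dpi 42 library 3.

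Motor neuron genes showed the same library apart. Chat, which makes acetylcholine, read 32.8, 31.3 and 29.9 CPM in naive and 17.1, 32.6 and 18.3 CPM at dpi 42. Chodl, a gene of fast motor neurons, read 39.2, 47.3 and 35.5 CPM in naive and 16.5, 48.1 and 15.9 CPM at dpi 42. In each, libraries 1 and 3 lay under all naive libraries and library 2 within or above them, and neither passed (q = 0.65 and 0.48). Isl2, a motor neuron transcription factor, was at 14.4 CPM in library 2 against 2.06 and 2.68 CPM in the others. Of 12 cholinergic genes only Esrrg, a nuclear receptor of gamma motor neurons, passed, lower at dpi 42. Of 17 transmitter identity genes 3 fell, where 12.1% of all tested genes did. Slc17a6, the vesicular glutamate carrier VGLUT2, fell from 223, 231 and 247 CPM to 104, 113 and 98.5 CPM (log2FC -1.15 ± 0.22, q = 5.5e-04). The others were Slc6a5, the glycine transporter GlyT2 (log2FC -1.02), and Gad2, a GABA-making enzyme (log2FC -0.89). Gad2 lost its call without dpi 42 library 1 or 3 or naive library 3 (q = 0.0523, 0.0526 and 0.0802), Slc6a5 without dpi 42 library 3 (q = 0.0502) and Esrrg without dpi 42 library 1 (q = 0.0506). In the fit of the 12 total RNA libraries 8 transmitter identity genes and 4 cholinergic genes fell. None of 17 neuropeptide genes passed. In the fit of the 12 total RNA libraries 1 rose and 2 fell, where 20.2% and 16.1% of all tested genes did.

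The receptors that glutamate, GABA and glycine act on fell as well. Of 31 tested, 17 fell and none rose (median log2FC -0.86), and 7 of the falls were past a log2FC of -1. The sum was 3009 to 3198 CPM in naive and 1648, 1801 and 1674 CPM at dpi 42, and here library 2 lay close to the others. Glrb, the glycine receptor beta chain that anchors it at synapses, read 414, 378 and 364 CPM in naive and 164, 245 and 173 CPM at dpi 42 (log2FC -0.99 ± 0.17, q = 2.1e-04). Grm5, a metabotropic glutamate receptor, read 96.7, 98.4 and 107 CPM in naive and 38.8, 36.0 and 40.8 CPM at dpi 42 (log2FC -1.38 ± 0.38, q = 0.011). Gria4, a rapid AMPA receptor subunit, fell by 1.00 ± 0.21 on the log2 scale (q = 0.0018). In each of these 3 genes all injured libraries lay below all naive libraries.

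Glra1, the adult glycine receptor alpha chain (chr11:55514238-55608198, mm10), showed the deepest fall of the list, from 122, 155 and 168 CPM to 37.0, 47.7 and 49.0 CPM (log2FC -1.74 ± 0.52, q = 0.019). Its groups were far apart, yet the call was lost when dpi 42 library 1 (q = 0.0834) or 3 (q = 0.0544) or naive library 2 (q = 0.0563) or 3 (q = 0.0663) was left out. The receptor count was 9 with library sizes alone and 28 in the fit of the 12 total RNA libraries, and it was 8, 12 and 7 without dpi 42 library 1, 2 and 3 and 11, 9 and 8 without naive library 1, 2 and 3. Among 20 chloride carriers and monoamine receptors, Slc12a5, the chloride exporter KCC2 that makes GABA and glycine inhibitory, read 658, 721 and 745 CPM in naive and 371, 445 and 375 CPM at dpi 42 (log2FC -0.83 ± 0.28, q = 0.034), a call lost without dpi 42 library 1 (q = 0.111), dpi 42 library 3 (q = 0.107) or any naive library (q between 0.0572 and 0.0914). Htr2c, the serotonin receptor that keeps motor neurons excitable, fell by 1.08 ± 0.20 (q = 4.5e-04). The adrenergic receptor Adra1a fell too (log2FC -1.46, q = 0.0372), a call lost in 5 of the 6 leave-one-out fits, all but the one without dpi 42 library 2 (q between 0.059 and 0.148). Htr2b, a serotonin receptor of meninges and vessels, was at least 31.8-fold higher.

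**Figure D3:**
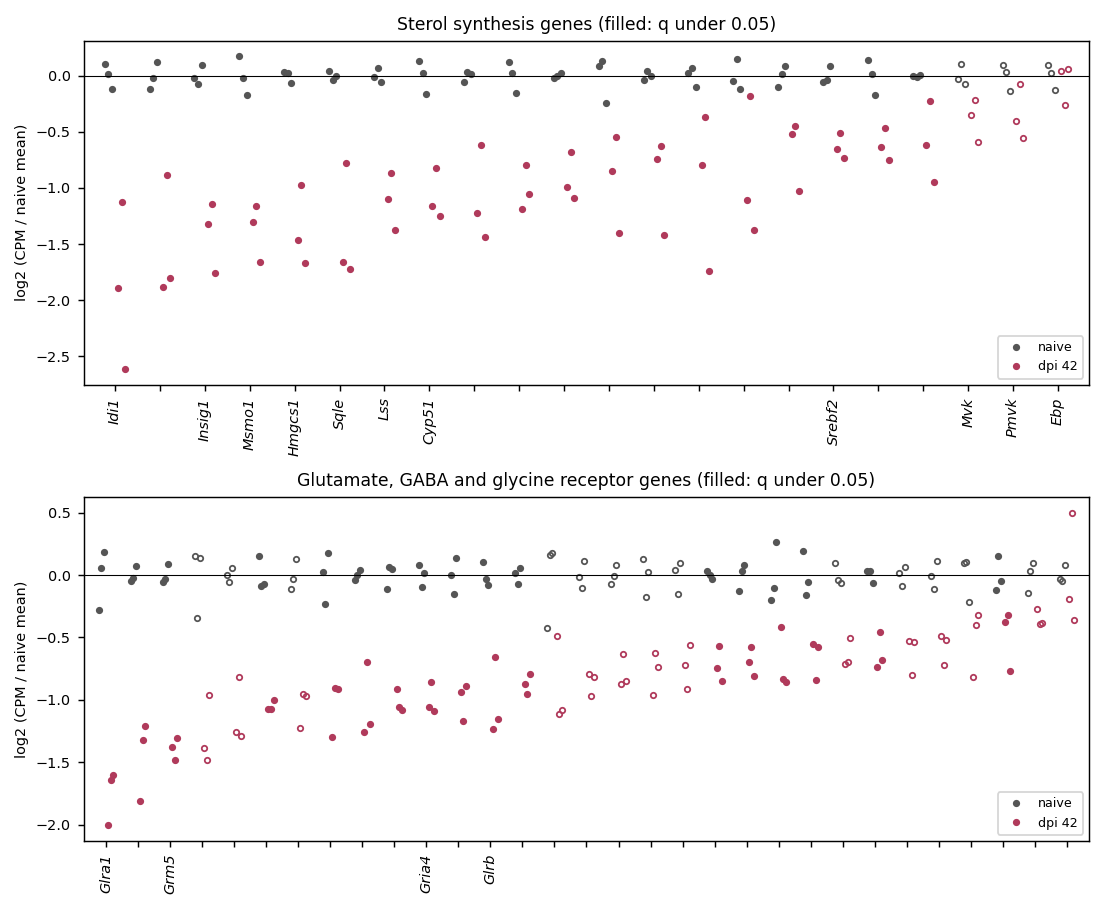
Level of sterol synthesis and transmitter receptor genes in each library as log2 of CPM over the naive mean, with filled points for genes with q under 0.05 and the genes described in the text labelled by symbol. Most genes lie below 0 in all 3 dpi 42 libraries, and in nearly all sterol genes library 2 is the highest of the 3.

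Sterol synthesis fell as a pathway. Cells make cholesterol through the mevalonate chain, with Hmgcs1 among its early enzymes. The chain is under the transcription factor SREBP2 (Srebf2), which the sterol sensor partner Insig1 holds back. Of 24 tested genes 21 fell and none rose (median log2FC -0.95), with 11 past a log2FC of -1, and the fit of the 12 total RNA libraries gave 21 as well. Hmgcs1 (chr13:119690379-119708260, mm10) read 412, 408 and 384 CPM in naive and 145, 204 and 126 CPM at dpi 42 (log2FC -1.34 ± 0.18, q = 1.9e-05). Sqle, the enzyme that oxidises squalene, read 111, 104.7 and 107 CPM in naive and 34.0, 62.7 and 32.6 CPM at dpi 42 (log2FC -1.32 ± 0.18, q = 2.3e-05), and Idi1, an isomerase early in the chain, read 16.01 to 18.7 CPM in naive and 4.69, 8.001 and 2.85 CPM at dpi 42 (log2FC -1.75 ± 0.30, q = 2.3e-04). The naive and injured groups did not overlap in these 3 genes, and library 2 was each time the highest of the injured libraries.

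Insig1 fell by 1.38 ± 0.17 (q = 5.1e-06) and Srebf2 by 0.63 ± 0.09 (q = 4.0e-05) on the log2 scale. The enzymes Cyp51 (log2FC -1.07), Lss (-1.10) and Msmo1 (-1.36), like Insig1 and Idi1, were also among the falls named for the smallest p or largest size in the whole table. Mvk (q = 0.076), Pmvk (q = 0.0789) and Ebp (log2FC -0.05, q = 0.87) did not pass. Without library 2 the count was 22 and the median log2FC -1.16.

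Sterol export moved the other way. Of 19 genes of efflux and of the liver X receptors, which sense oxidised cholesterol, 11 rose and 1 fell (median log2FC 0.81). Abca1, the pump that loads cholesterol onto apolipoproteins, read 42.0, 39.6 and 42.7 CPM in naive and 113, 91.2 and 160 CPM at dpi 42 (log2FC 1.55 ± 0.27, q = 2.7e-04). Mylip, a ubiquitin ligase and liver X receptor target, rose by 2.08 ± 0.28 on the log2 scale (q = 1.6e-05). The member that fell was Vldlr, an uptake receptor, by 0.65 ± 0.13 (q = 0.0010). Apoe, described above, takes up most of this list's summed level of 19930, 14570 and 20650 CPM.

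Of 23 iron genes tested, 9 rose and 2 fell. Tfrc, the transferrin receptor that imports iron, had the smallest p of all falls in the table and read 119, 123 and 184 CPM in naive and 43.6, 57.0 and 48.3 CPM at dpi 42 (log2FC -1.51 ± 0.15, q = 3.1e-07). Ftl1, which stores iron, read 125, 124 and 108 CPM in naive and 815, 598 and 855 CPM at dpi 42 (log2FC 2.67 ± 0.16, q = 1.7e-10). Hmox1, which frees iron from haem, rose by 2.51 ± 0.26 and Slc11a1, the iron carrier of phagosomes, by 4.22 ± 0.37 on the log2 scale. The other fall was that of Ireb2, an RNA-binding regulator of iron genes (log2FC -0.72 ± 0.17, q = 0.0035). The heavy ferritin chain Fth1 did not pass (log2FC 0.34, q = 0.182).

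The remaining falls named for the smallest p were Epm2aip1 (log2FC -1.04), Wdr7 (-1.02) and Dmxl1 (-1.15), which act with the proton pump of vesicles in the case of the last 2, Hectd4 (-1.09), a ubiquitin ligase-like gene, and Ttbk2 (-1.05), a tau tubulin kinase needed for cilia. Those named for size were Stxbp5l, a tomosyn that restrains vesicle release, at 28.6, 27.5 and 35.3 CPM in naive and 5.41, 7.16 and 11.9 CPM at dpi 42 (log2FC -1.90 ± 0.48, q = 0.0075), Olfm3, a secreted olfactomedin of neurons (log2FC -1.82 ± 0.25, q = 3.1e-05), Dmrtc1a (log2FC -1.92, q = 0.036) and Gm21887, which had no read in any dpi 42 library and 0.41 to 1.41 CPM in naive (q = 0.021). Gm21887 lost its call without any of the 3 dpi 42 libraries (q = 0.0672, 0.0534 and 0.0657), and Dmrtc1a lost it in 4 of the 6 leave-one-out fits (q between 0.0829 and 0.134).

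Myelin genes stood near their naive level. Of 30 tested, 4 rose and 4 fell, with a median log2FC of -0.05. Both counts were near the shares of all tested genes, 10.4% and 12.1%. Mbp, a major protein of compact myelin, read 10870 to 13170 CPM in naive and 12160, 12530 and 11450 CPM at dpi 42, with overlapping groups (log2FC 0.01 ± 0.12, q = 0.98). Mog, an outer myelin glycoprotein, fell by 0.45 ± 0.11 on the log2 scale (q = 0.0033), with Mobp, Ugt8a and Tspan2, which lost their calls without at least 1 library each (Tspan2 without dpi 42 library 3, q = 0.0512, Ugt8a without naive library 1, q = 0.0646, and Mobp in 5 of 6 such fits, all but that without naive library 2, q between 0.053 and 0.14). Klk6, a protease of mature OLs, read 155, 128 and 70.3 CPM in naive and 286, 265 and 282 CPM at dpi 42 (log2FC 1.24 ± 0.25, q = 9.5e-04), and Apod, an apolipoprotein of OLs and fibroblasts, rose by 1.19 ± 0.15 (q = 1.1e-05). Ptgds and Ndrg1 were the other rises, Ndrg1 not without naive library 3 (q = 0.0576). With library sizes alone 9 rose and 3 fell, so the balance of this list moved with scaling.

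Of 22 genes of OL precursors and newly formed OLs, 3 rose and none fell, against 12 and 2 in the fit of the 12 total RNA libraries. The 3 rises were near the share of all tested genes that rose, 10.4%. Bmp4, a growth factor made by newly formed OLs, read 1.28, 2.74 and 1.52 CPM in naive and 16.4, 12.1 and 12.4 CPM at dpi 42 (log2FC 2.88 ± 0.56, q = 7.0e-04). The others were Matn4, a matrix protein of precursors, which lost its call without naive library 3 (q = 0.0697), and Tcf7l2, a transcription factor of newly formed OLs.

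Schwann cell and sensory ganglion genes differed in level between pools. Of 21 Schwann cell genes tested 6 rose and none fell (median log2FC 1.86), and the sum read 277, 264 and 505 CPM in naive and 691, 1321 and 852 CPM at dpi 42. Naive library 3 was the highest of the naive libraries. Pmp22, a peripheral myelin protein, read 135, 130 and 174 CPM in naive and 242, 391 and 269 CPM at dpi 42 (log2FC 1.04 ± 0.20, q = 6.0e-04). Ngfr, the neurotrophin receptor of Schwann cells after denervation, read 2.98 to 3.52 CPM in naive and 8.82, 31.7 and 6.95 CPM at dpi 42 (log2FC 2.31 ± 0.53, q = 0.0030). Without library 2 the count was 4 and the median 1.30. The count was 3 without dpi 42 library 3, 2 without naive library 1 or 2, 9 without naive library 3 and 15 in the fit of the 12 total RNA libraries.

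Of 12 sensory ganglion genes 4 rose, and their sum of 3.96 to 5.51 CPM in naive became 34.0, 118 and 23.99 CPM. Scn10a had no read in naive and 7.21, 23.3 and 4.16 CPM at dpi 42, at least 119-fold higher (q = 0.027), a call lost without dpi 42 library 2 (q = 0.058) or any naive library (q between 0.0791 and 0.0825). Avil, an actin-binding protein of sensory neurons, read 0.38 to 0.48 CPM in naive and 5.35, 24.5 and 5.52 CPM at dpi 42, and lost its call without library 2 (q = 0.0527). Library 2 was highest for the Schwann cell, ganglion and motor neuron genes named here and lowest for Gpnmb, Slc13a4 and Col1a1. The ganglion count was 2 without dpi 42 library 2 or any 1 naive library and 7 in the fit of the 12 total RNA libraries. The source of these transcripts was not tested.

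Of 14 genes of axon injury and regrowth, 6 rose, none fell and 8 did not pass (median log2FC 0.16). Atf3, an injury-induced transcription factor, read 1.54, 0.84 and 0.95 CPM in naive and 19.6, 12.4 and 23.7 CPM at dpi 42 (log2FC 4.06 ± 0.36, q = 8.2e-08). Sprr1a, a protein of regrowing axons, rose from under 0.7 CPM to 12.96, 8.27 and 9.34 CPM (log2FC 4.87 ± 0.67, q = 2.1e-05). Of 30 cell cycle genes 14 rose and none fell, with 9 higher without naive library 2 and 22 in the fit of the 12 total RNA libraries, and Mki67, which marks cycling cells, went from 0.44 to 0.79 CPM to 5.84, 2.88 and 8.71 CPM (log2FC 3.31 ± 0.42, q = 7.2e-06). Of 20 immediate early genes 6 rose, among them Fos by 0.81 on the log2 scale (q = 0.014), which lost its call without dpi 42 library 1 (q = 0.051) or naive library 3 (q = 0.0681). Of 24 ependymal and cilia genes 3 rose (Foxj1, Rarres2 and Cfap126), near the 10.4% of all tested genes. Of 7 erythroid genes 2 rose, the near-identical Hba-a1 and Hba-a2. Of 12 muscle genes none rose, with 4 higher in the fit of the 12 total RNA libraries, where 20.2% of all tested genes were. Foxj1 lost its call without dpi 42 library 1 or 3 or naive library 1 (q = 0.0623, 0.0615 and 0.0986), Hba-a1 without dpi 42 library 1 or naive library 2 or 3 (q = 0.0708, 0.0575 and 0.0808) and Hba-a2 without dpi 42 library 1 or naive library 3 (q = 0.115 and 0.0559).

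**Figure D4:**
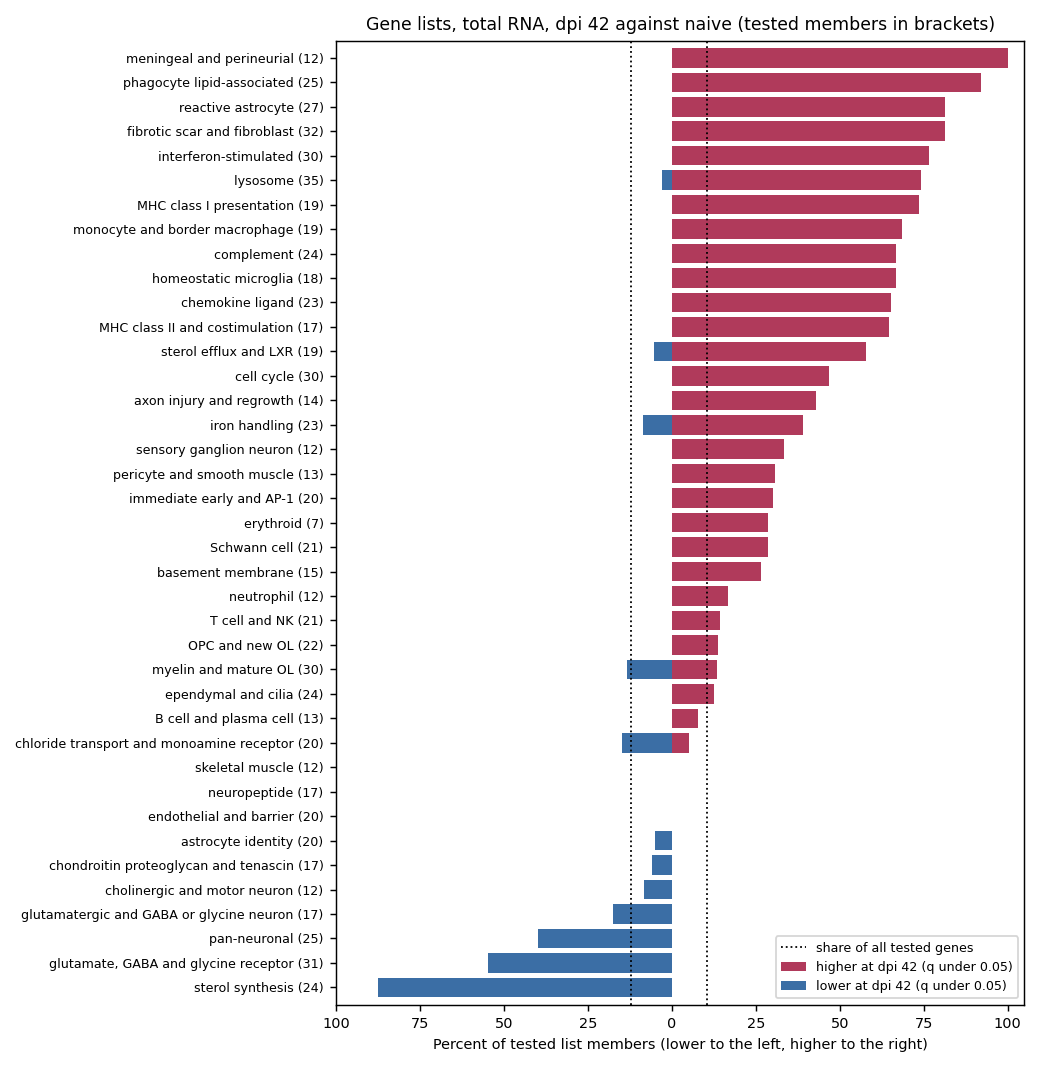
Share of the tested members of 39 gene lists that rose (bars to the right) or fell (bars to the left) at dpi 42 against naive, in percent, with dotted lines at the share of all genes, 10.4% and 12.1%. The meningeal, phagocyte, fibrotic and reactive astrocyte lists rose in most of their members and the sterol synthesis and receptor lists fell in most of theirs.

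Total RNA at dpi 42 was set beside the 2 earlier injured groups to show where the chronic cord differed. By the labels all injured groups were injured at the same age, so dpi 42 mice were also older at collection. Time after injury and age cannot be told apart here. Naive cord was collected together with dpi 42 cord, as the study states. Against dpi 10, 10 genes were higher (0.0583%) and 35 lower (0.204%) of 17167, and 13 of the lower genes (0.0757%) were past a log2FC of -1. The libraries of the 2 groups did not overlap in 14.5% of tested genes, higher at dpi 42, and in 12.8%, lower. The lower genes included collagens and lysosome genes. Col1a1 read 793, 900 and 823 CPM at dpi 10 against 252, 145 and 254 CPM at dpi 42 (log2FC -1.95 ± 0.33, q = 0.014). Grn was lower by 0.74 ± 0.13 (q = 0.016) and Ctsb, a lysosomal protease, by 0.62 ± 0.12 (q = 0.028) on the log2 scale, Irf7 by 1.56 ± 0.30 (q = 0.027) and Sprr1a by 3.17 ± 0.53 (q = 0.013). Arg1 fell from 3.29, 5.68 and 2.67 CPM to 0.34, 0 and 0.20 CPM (log2FC -4.38 ± 0.77, q = 0.019). The 10 higher genes, which included Nudc, Ndufs6 and the synaptic scaffold gene Shank1, differed by a log2FC of 0.43 to 0.74. These calls were few and unstable: leaving out dpi 42 library 2 or dpi 10 library 2 left 0 higher and 0 lower, with 465 and 550 or 601 and 538 genes at an unadjusted p under 0.05, and DESeq2 called 136 and 150.

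**Figure D5:**
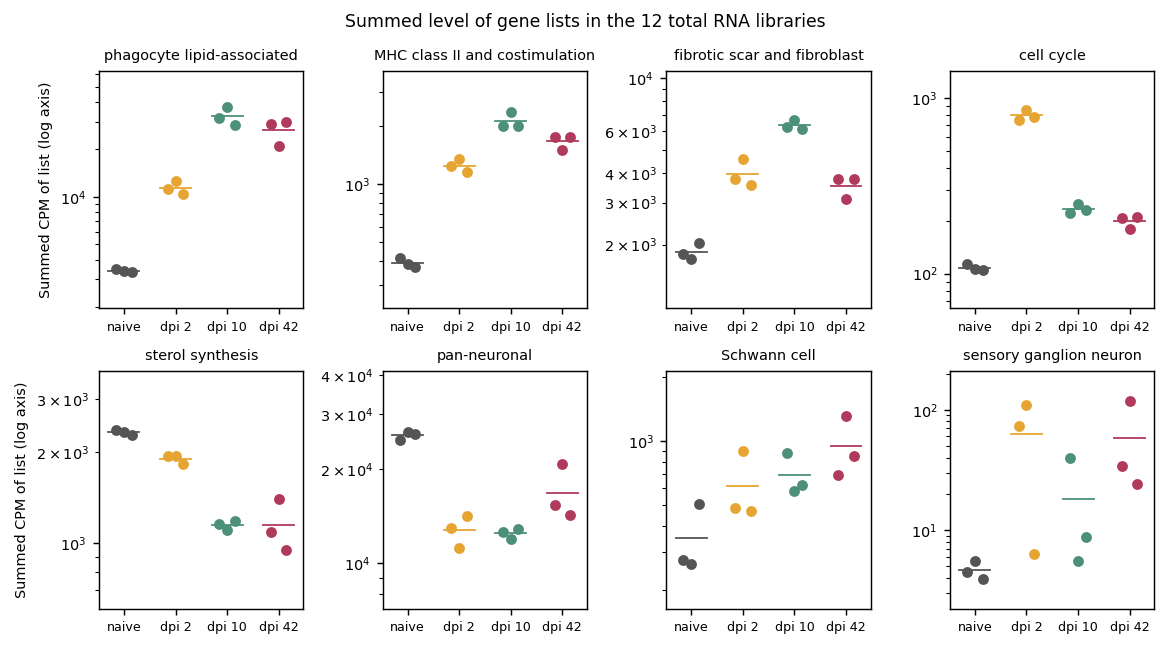
Summed level in CPM of 8 gene lists in each of the 12 total RNA libraries, naive and dpi 2, 10 and 42. At dpi 42 phagocyte genes stay at 21020 to 29930 CPM, fibrotic genes lie between their naive and dpi 10 levels, cell cycle genes lie far below dpi 2, and pool 2 of dpi 42 is the highest for Schwann cell and ganglion genes.

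Lists that had risen against naive were compared with dpi 10 through their own counts. Of the fibrotic genes 4 of 32 were lower at dpi 42 than at dpi 10 (median log2FC -1.04), and the sum had been 6087 to 6691 CPM at dpi 10. Of the basement membrane genes 3 of 15 were lower, of the lysosome genes 5 of 35 and of the phagocyte genes 3 of 25. Of the 17 class II genes 1 was lower, Lgmn, a lysosomal protease (log2FC -0.51 ± 0.10, q = 0.0291). H2-Aa read 42.8, 46.3 and 51.1 CPM at dpi 10 (log2FC -0.14 ± 0.41, q = 0.97), and a q of this size does not show equal levels.

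Against dpi 2, 888 genes were higher (5.17%) and 960 lower (5.59%), of which 150 (0.874%) and 297 (1.73%) were past a log2FC of 1 in size. The dpi 42 libraries lay above all dpi 2 libraries in 19.7% of tested genes and below them in 15.6%. Of the cell cycle genes 27 of 30 were lower at dpi 42 (median log2FC -2.76), with a sum of 748 to 860 CPM at dpi 2 and 207, 181 and 209 CPM at dpi 42. Mki67 was lower by 3.58 on the log2 scale (q = 4.0e-06). Of the phagocyte genes 13 of 25 were higher at dpi 42 than at dpi 2 and 3 lower, Spp1 among the latter (log2FC -1.997 ± 0.19, q = 1.4e-06). Of the sterol synthesis genes 17 of 24 were lower at dpi 42 than at dpi 2, Msmo1 by 1.34 ± 0.17 (q = 3.3e-05).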

How the data were processed

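Total RNA and OL ribosome-bound RNA from naive, dpi 2, dpi 10 and dpi 42 cord gave 24 libraries in 8 groups of 3 pools, each of 2 mice. The deposited values are raw read counts per gene: the authors aligned reads with STAR to mm10 (GRCm38.p6) and, per the labels, checked them with FastQC 0.10.1 and counted them with HTSeq 0.10.0. The strand setting is not given in the sources used here, so a gene and its antisense partner, and paralogs, may share reads. The 6 libraries compared held 27739039 to 29050061 counts, and these numbers limit genes of few reads.

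Genes with a count sum of at least 10 over all libraries (17167 of 21965) were fitted in edgeR 4.0.16 (R 4.3.3) with 1 mean per group, TMM scaling and the quasi-likelihood test. Genes with q under 0.05, after Benjamini-Hochberg adjustment over all tested genes, were said to rise or fall. SE was the log2FC divided by the square root of F. The p-values rest on the spread between pools within all 8 groups, OL libraries included, and not on the compared pools alone. Each group had only 3 pools. Genes named from the whole table had a log2FC past 1 in size and groups that did not overlap: the 10 with the smallest p each way and the 5 with the largest fold at 1 CPM or more, and for the other injured groups the 3 with the smallest p each way. The other genes named are members of 39 lists. The members and the lists were chosen with earlier results of these data known. Alternatives were DESeq2 1.42.0, other filters and scalings, fits of 12 or 6 libraries, a replicate block and leaving out each library. The scripts were tested on simulated counts. Promoters came from RefSeq for GRCm38.p6, which held 4 of the 5 genes sought, H2-Ab1 not among them. H2-DMa has 2 listed starts, 1 with a match at -198. Gene positions came from the GENCODE annotation of the same build. Python 3.11.15 with pandas 2.3.3 and matplotlib 3.10.9 made the tables and figures. Some genes of the lists are not reported here.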

Additional observations from a re-analysis of the deposited data

Results flagged for a closer look

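Differences between dpi 42 and the earlier injured groups were tested directly. Between dpi 42 and dpi 10, 45 genes differed in total RNA (edgeR's quasi-likelihood test). The 3 with the smallest p that were also past a log2FC of 1 were collagen genes. Col1a2, a chain of collagen I, read 616, 674 and 587 CPM at dpi 10 and 252, 160 and 253 CPM at dpi 42 (log2FC -1.50, q = 0.0061). Col18a1, the precursor of endostatin, read 73.5, 85.9 and 67.7 CPM at dpi 10 and 17.3, 10.8 and 18.5 CPM at dpi 42 (log2FC -2.29). Col6a3, a chain of beaded-filament collagen VI, gave a log2FC of -1.74. All 3 fell in every dpi 42 library below every dpi 10 library, and all lost their call without dpi 10 library 2 (q = 0.0785, 0.0785 and 0.101) or without dpi 42 library 2 (q = 0.0739, 0.0761 and 0.117). Col6a3 lost it also without dpi 42 library 1 (q = 0.061).

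Between dpi 42 and dpi 2, 1848 genes differed. Higher at dpi 42 were Man2b1, a lysosomal mannosidase (log2FC 1.38), Clmn, an actin-binding membrane protein (log2FC 1.51), and Lag3, a receptor of T cells that microglia express too (log2FC 3.41). Lag3 read 5.24, 2.75 and 5.11 CPM at dpi 2 and 52.0, 46.9 and 40.6 CPM at dpi 42. Lower at dpi 42 were Col2a1, cartilage collagen (log2FC -3.50), Hmox1, haem oxygenase (log2FC -3.92), and Gpd1, a glycerol phosphate dehydrogenase (log2FC -1.95). Hmox1 read 595, 631 and 425 CPM at dpi 2 and 39.7, 32.7 and 36.4 CPM at dpi 42, still above 5.38 to 7.64 CPM in naive. No group held 4 or more pools, so no pool was tested as an outlier.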

How the results depend on the processing

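The genes carried through every alternative (those named by rule, with Gfap) kept their direction in all 593 alternative values, and 570 kept their side of the threshold, 20 lost a call and 3 gained one. Of 585 list medians, 146 moved by more than the spread between pools. Sign changes occurred in the proteoglycan (-0.21 to 0.01), endothelial (-0.05 to 0.16) and myelin (-0.14 to 0.08) lists and in no other list. Of 339 list members called against naive, 254 were called without any 1 of the 6 libraries and 85 lost the call without at least 1.

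The fits that drop the OL libraries, whose spread enters the shared estimate, called more genes. Against naive 3433 rose with the 12 total RNA libraries and 3309 with the 6 compared, and 1154 fell with library sizes alone. Leaving out 1 library gave 1342 to 1711 higher and 1264 to 1965 lower, and 281 to 333 list members against 512 with the 12 libraries. Against dpi 10 the counts higher and lower were 136 and 150 with DESeq2, 437 and 645 with 12 libraries, 459 and 737 with 6, 77 lower with library sizes alone, and 0 to 19 and 0 to 30 without 1 library. Against dpi 2 they were 2265 and 2361 with 12 libraries, 1424 and 1709 with 6, 562 higher with library sizes alone, and 359 to 684 and 540 to 830 without 1 library. The causes were not tested. The leave-one-out fits also had fewer samples.

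Same-numbered naive and dpi 42 pools deviated together only weakly (r = 0.042, 0.053 and 0.017). The second value involves dpi 42 library 2, whose description gives no number and whose conflicting title gives a different number. Values this small do not settle whether the numbers pair the pools, and the main fit did not pair them. A replicate block on the 12 total RNA libraries, in which dpi 42 library 2 has no numbered partner and so adds nothing to the contrast, gave 3434 genes higher against naive and 2993 lower, 68 higher and 200 lower against dpi 10, 1930 higher and 2003 lower against dpi 2, and 523 list members. The same 12 libraries without the block gave 3433 higher and 2743 lower against naive, 437 and 645 against dpi 10, 2265 and 2361 against dpi 2, and 512 members. Each sample of naive correlated best with its own number at dpi 42. The deviations were taken from group means of 3 pools, which ties these correlations to each other, so the match cannot show pairing. Leaving out tissue pool 2 of dpi 2, an alternative chosen after seeing the data, gave 1857 higher and 2270 lower against naive. Genes of few reads were limited by depth, with 3 reads in a naive library worth 0.0967 CPM.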
